A study of Mus musculus with 8 samples.

Results

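The transcription factors that set microglial identity were examined in BV2 cells, an immortalised mouse microglial line, through the open chromatin around their genes. The members are 9 genes chosen by name: Spi1, Irf8, Runx1, Cebpa, Cebpb, Mef2a, Mef2c, Sall1 and Maf. All 9 were found among the 49943 genes of the RefSeq table for GRCm38.p6. A region belonged to a member when it lay within 10 kb of the gene body. Of the 40784 regions made by merging overlapping peaks of all libraries, 39 did so, and no region belonged to more than 1 member.

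Open chromatin was mapped with ATAC-seq, where the transposase Tn5 inserts adapters into open chromatin. The 8 libraries came from 4 groups of 2 biological replicates: BV2 cells alone at 21% oxygen, BV2 cells alone below 0.1% oxygen, and BV2 cells seeded onto GL261 mouse glioma cells at either oxygen level, the low oxygen lasting 16 h. All samples carried formaldehyde fixation and a sort for cells positive for CD45 or GFP, and all came from a single BV2 line. The comparisons ask how low oxygen and contact with glioma cells alter accessibility at these genes.

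Spi1 encodes PU.1, the ETS factor that opens chromatin at myeloid enhancers, and Irf8 encodes an interferon regulatory factor that binds beside PU.1 and is needed for microglial development. Runx1 marks the yolk sac precursors of microglia, and Cebpa and Cebpb encode leucine zipper factors, the first tied to myeloid commitment and the second to inflammatory and stress responses. Mef2a and Mef2c encode MADS-box factors bound at microglial enhancers, Sall1 encodes a zinc finger factor that in brain macrophages marks resident microglia, and Maf encodes a leucine zipper factor of mature macrophages.

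Starts were listed for 7 of the 9 members in the RefSeq promoter table of GRCm38.p6, and 5 regions held such a start. The 5 windows before these starts are shown because they are the member promoters whose start lay under a peak. Each line gives the 250 bases before the start, 5′ to 3′ along the gene. Capitals mark matches to the hypoxia response core ACGTG on either strand, which in the distal Runx1 promoter lies inside an E-box, CACGTG.
Irf8, chr8:120736108-120736357, plus strand: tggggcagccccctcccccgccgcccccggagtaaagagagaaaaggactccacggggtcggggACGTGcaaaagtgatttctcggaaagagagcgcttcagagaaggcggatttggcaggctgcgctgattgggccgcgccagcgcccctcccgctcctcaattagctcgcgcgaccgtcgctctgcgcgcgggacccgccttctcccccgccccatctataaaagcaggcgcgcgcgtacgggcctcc
Runx1 distal start, chr16:92826075-92826324, minus strand: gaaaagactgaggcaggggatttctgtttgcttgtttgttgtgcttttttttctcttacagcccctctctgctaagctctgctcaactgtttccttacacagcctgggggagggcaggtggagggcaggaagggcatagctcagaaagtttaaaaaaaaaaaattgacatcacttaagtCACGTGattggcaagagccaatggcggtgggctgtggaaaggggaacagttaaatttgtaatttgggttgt
Runx1 proximal start, chr16:92697330-92697579, minus strand: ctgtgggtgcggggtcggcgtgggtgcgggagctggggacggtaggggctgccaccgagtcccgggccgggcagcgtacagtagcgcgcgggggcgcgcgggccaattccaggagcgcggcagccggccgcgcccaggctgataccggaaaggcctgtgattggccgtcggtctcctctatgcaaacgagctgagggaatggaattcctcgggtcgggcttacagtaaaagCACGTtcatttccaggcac
Cebpb, chr2:167688665-167688914, plus strand: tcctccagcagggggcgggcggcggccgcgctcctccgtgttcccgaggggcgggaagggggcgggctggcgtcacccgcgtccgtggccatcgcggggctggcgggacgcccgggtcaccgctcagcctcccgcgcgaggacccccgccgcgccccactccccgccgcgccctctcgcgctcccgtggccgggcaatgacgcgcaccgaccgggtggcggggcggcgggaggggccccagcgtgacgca
Mef2a, chr7:67372859-67373108, minus strand: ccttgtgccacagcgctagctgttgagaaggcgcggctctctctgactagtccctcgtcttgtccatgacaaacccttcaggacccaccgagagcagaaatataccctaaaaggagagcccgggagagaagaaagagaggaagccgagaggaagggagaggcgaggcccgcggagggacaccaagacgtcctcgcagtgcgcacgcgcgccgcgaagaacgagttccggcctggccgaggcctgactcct

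The merged region covered all 250 bases at Irf8, at the proximal Runx1 start and at Mef2a, 187 bases at Cebpb and 180 bases at the distal Runx1 start. The 9 motifs searched on both strands were the PU.1 form of the ETS core (GAGGAAGT), the RUNX site (TGTGGT), the C/EBP site (TTGCNNAA), the interferon response repeat (GAAANNGAA), the MEF2 site, the hypoxia response core (ACGTG), the AP-1 site (TGANTCA), the cAMP response site (TGACGTCA) and the E-box (CACGTG), which contains ACGTG on both strands. Of all 32851 windows of the same length, 16.6% held ACGTG and 6.02% held CACGTG. Among the 5 windows shown, ACGTG occurred at Irf8, at bases -186 to -182 from the start, and at both Runx1 starts, at -71 to -66 within the E-box of the distal one and at -19 to -15 of the proximal one. The other 8 of the 13 member windows held no ACGTG, so 3 of 13 held it, a share that was not tested against that of all windows. None of the other 7 motifs had a match in the 5 windows shown, and 1 AP-1 match lay at -137 to -131 before the third Mef2c start, where no region was called. Their shares over all windows were 2.44% for the PU.1 form, 14.0% for RUNX, 9.56% for C/EBP, 7.13% for the interferon response repeat, 2.92% for MEF2, 6.75% for AP-1 and 1.55% for the cAMP response site. These windows were mostly rich in G and C, at 67.2% for Irf8, 67.6% for the proximal Runx1 start, 81.6% for Cebpb and 61.6% for Mef2a, against a median of 52.4% over all windows. The distal Runx1 start was the exception, at 45.6%.

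The peak lists held from 9910 to 29658 peaks per library, and the shortest were both of monoculture normoxia (13333 and 9910). Read totals were not used here. The number of fragments at each summit was solved from the deposited fold enrichment and −log10 p, which worked for 99.8% to 99.9% of the peaks of each list. The background was 0.758 and 1.03 fragments a position in the normoxic monoculture libraries and from 1.07 to 1.45 in the other 6. Member peaks held from 7 to 85 fragments at the summit, with a median of 23. A missing peak is therefore one that did not pass the authors' threshold at that depth and may still be open chromatin. A peak within 10 kb was found at 7827 to 9378 of all 21887 protein-coding genes in monoculture normoxia and at 12592 to 14126 elsewhere. Of 12 microglia and macrophage marker genes, from 8 to 12 had a peak within 10 kb in each library. Of 13 glioma, glial and mesenchymal marker genes, none had one in monoculture normoxia, 2 and 3 did in monoculture hypoxia, 7 and 3 in normoxic co-culture and 9 and 7 in hypoxic co-culture. The regions of the second list with a peak numbered 0 in both libraries of monoculture normoxia, 3 in each of monoculture hypoxia, 11 and 4 in normoxic co-culture and 18 and 8 in hypoxic co-culture, and Olig2, Sox9 and Col1a2 had none in any library. A sort for CD45, a leukocyte marker, would remove glioma cells, but cells were sorted for CD45 or GFP and the labels do not say which marker was used for which sample. The part of such cells in the results below was not tested, and in such bulk samples a change in the share of cells cannot be told apart from a change in accessibility per cell.

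**Figure D1:**
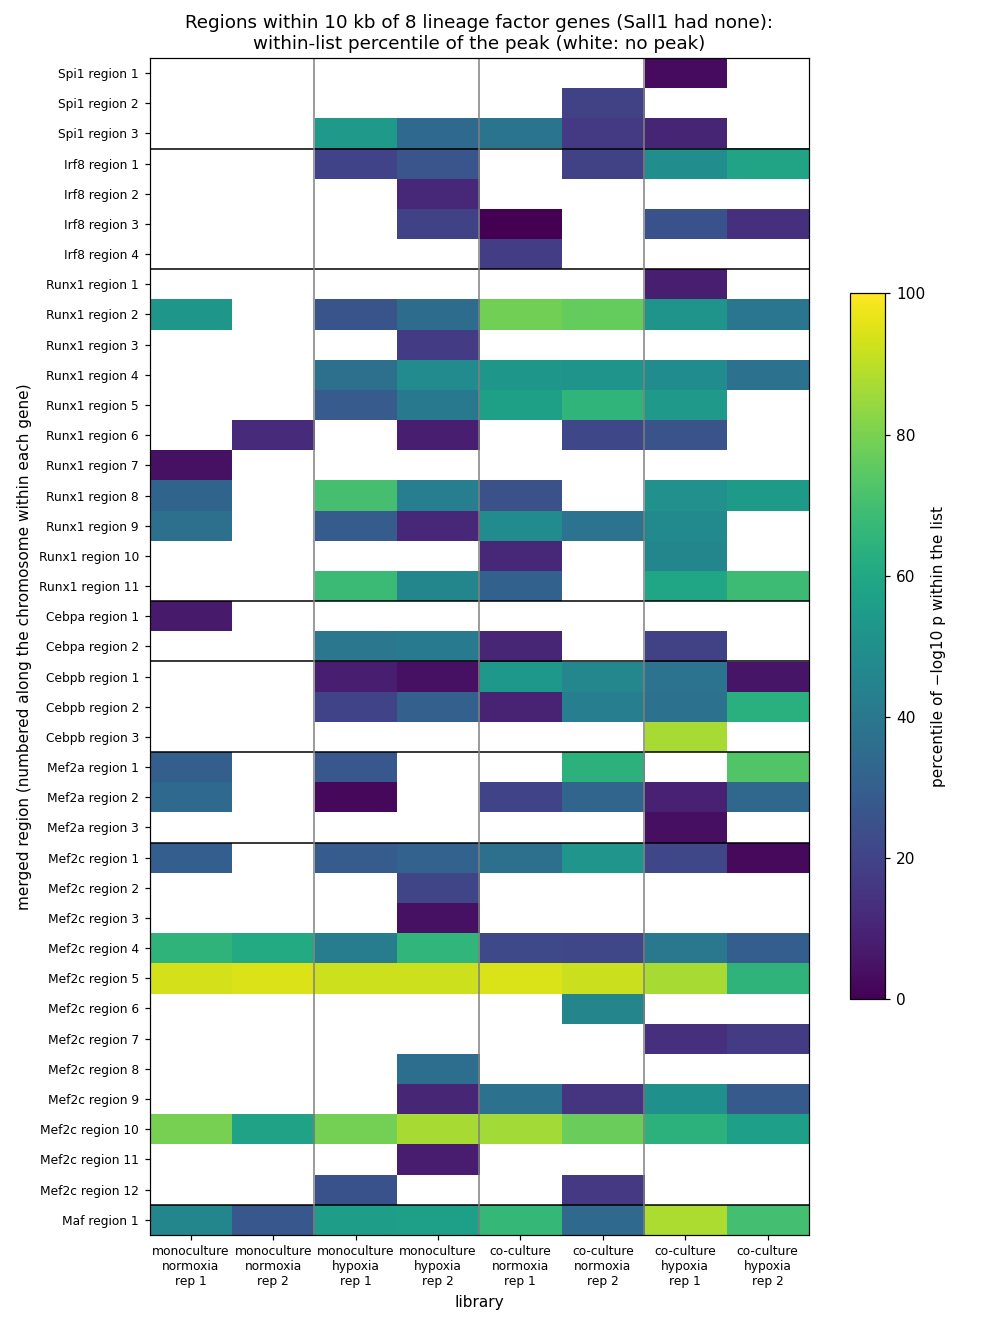
Within-list percentile by −log10 p, from 0 to 100 by colour, for the 39 regions within 10 kb of 8 member genes (rows, numbered along the chromosome) in the 8 libraries (columns). White means no peak, and Sall1 has no row. The filled rows are 3 Mef2c regions and the Maf region, and the normoxic monoculture columns are the emptiest.

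Accessibility was spread unevenly over the 9 genes. Mef2c had 12 regions and Runx1 11, more than 99.1% and 98.8% of all protein-coding genes. Irf8 had 4, Spi1, Cebpb and Mef2a 3 each, Cebpa 2, Maf 1 and Sall1 none. Gene length bears on these counts, since Runx1 spans 224609 bp and Mef2c 163063 bp, and per 100 kb searched Cebpb led with 13.9 regions, ahead of Irf8 with 9.92, Cebpa with 8.84, Mef2c with 6.56, Spi1 with 5.62, Runx1 with 4.50, Maf with 4.23 and Mef2a with 1.81. Inside the gene body lay 27 of the 39 regions, 4 lay over a gene end and 8 outside. Their median width was 540 bp, against 615 bp for all regions. The RefSeq table gives no exons, so regions are placed only against gene bodies and starts.

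Few of the member regions were called in every library. A peak in all 8 libraries was found at 4 of the 39 (10.3%), against 15.6% of all 40784 regions, and a peak in 1 library only at 15 of the 39 (38.5%), against 26.7%. The 4 regions called throughout were 3 inside Mef2c and 1 at Maf, so Mef2c and Maf were the members with a constant site. The best percentile a region reached in any list had a median of 45.5 over the 39 member regions and of 51.9 over all regions, a difference that was not tested. It is a maximum over the lists that call a region, and more of the member regions were called in 1 list only. A percentile is the rank of a peak by −log10 p among the peaks of its own list, and since lists differ in length it describes a list and shows no change between lists.

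Sall1 was without any peak within 10 kb in all 8 libraries. Its 3 listed starts, on chromosome 8 between 89042862 and 89044162, therefore had none either. Of its relatives, Sall2 had 2 regions and both were called in all 8 libraries, Sall3 had 2 regions, and Sall4 had none.

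Spi1 (chromosome 2, 91082374 to 91115759) was sparsely covered. Its main region (Spi1 region 3), from 91096372 to 91097251 and inside the gene body, had a peak in 5 libraries. Percentiles were 54.3 and 34.1 in monoculture hypoxia, 38.6 and 17.2 in normoxic co-culture and 10.3 in co-culture hypoxia replicate 1, with 15 to 27 fragments at the summits. Both normoxic monoculture libraries and co-culture hypoxia replicate 2 had no peak there. The other 2 Spi1 regions were each called in 1 library, one beside the lower gene end in co-culture hypoxia replicate 1 and one inside the gene in co-culture normoxia replicate 2. The relatives Spib and Spic had no region.

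Irf8 (chromosome 8, 120736358 to 120756694) had its main region over the first listed start, from 120735960 to 120736765. It had percentiles of 20.1 and 26.3 in monoculture hypoxia, 19.7 in co-culture normoxia replicate 2, and 49.2 and 58.3 in co-culture hypoxia. All 4 hypoxic libraries and 1 of the 4 normoxic libraries thus had the Irf8 promoter peak, with 17 to 30 fragments at the summit. Inside the gene, a region 7.35 kb past the first start had a peak in 4 libraries, 3 of them hypoxic, with percentiles from 0.282 to 25.3. The other 2 Irf8 regions were each called in 1 library.

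Runx1 (chromosome 16, 92601466 to 92826074) has a distal and a proximal start, and both were under a region. At the distal start (region 11, 92825601 to 92826254) percentiles were 68.2 and 45.8 in monoculture hypoxia, 31.1 in co-culture normoxia replicate 1 and 58.7 and 68.7 in co-culture hypoxia. As at Irf8, all 4 hypoxic libraries and 1 normoxic library had this peak. At the proximal start (region 5, 92696635 to 92697788) they were 28.7 and 40.4 in monoculture hypoxia, 56.9 and 65.5 in normoxic co-culture and 53.8 in co-culture hypoxia replicate 1. Neither normoxic monoculture library had a peak at either start.

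Along the body of Runx1, the most widely called region lay 205 kb past the distal start (92620554 to 92621518). It was present in every library except monoculture normoxia replicate 2, with percentiles of 52.9 in monoculture normoxia replicate 1, 26.0 and 35.2 in monoculture hypoxia, 78.7 and 76.3 in co-culture normoxia and 51.7 and 39.1 in co-culture hypoxia. Regions 25.0 kb and 38.9 kb past the distal start were called in 6 libraries each, and one at 150.2 kb in the 6 libraries outside monoculture normoxia. Among the other 5 Runx1 regions, 3 were called in 1 library.

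**Figure D2:**
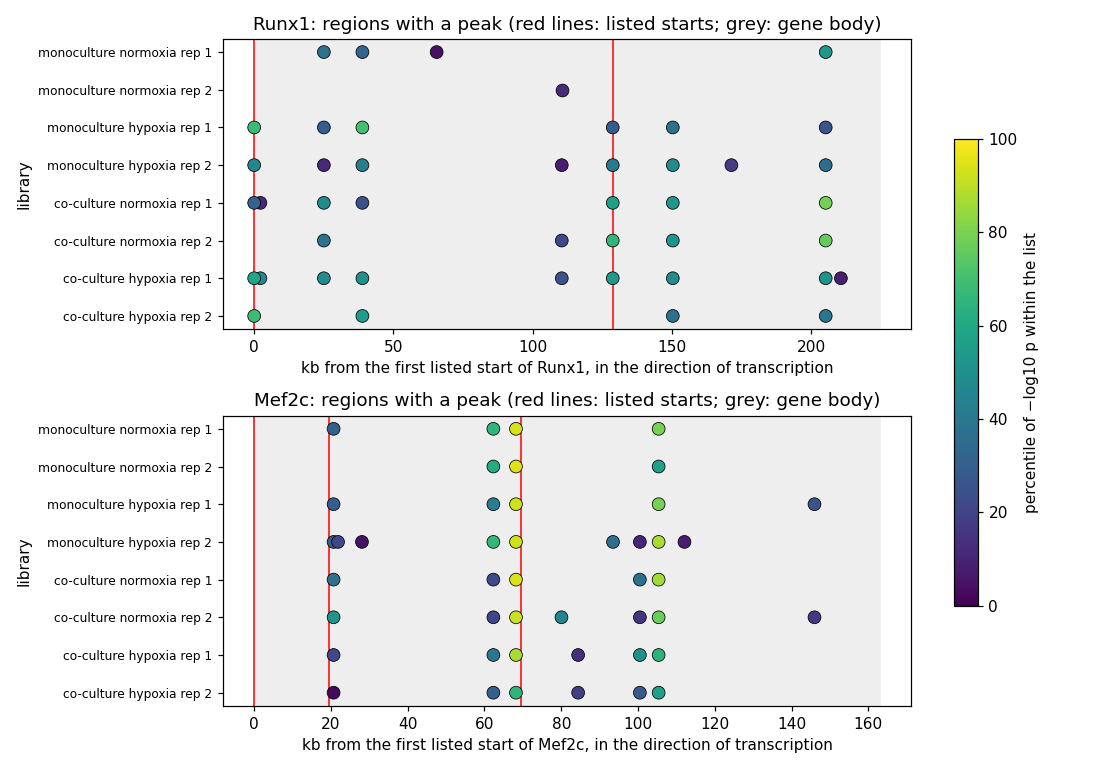
Regions with a peak along Runx1 (top) and Mef2c (bottom), by library (vertical axis), with the distance in kb from the first listed start in the direction of transcription on the horizontal axis and the within-list percentile by colour. Red lines are listed starts and grey is the gene body. The normoxic monoculture libraries lack a point at both Runx1 starts, while 3 Mef2c regions have a point in every library.

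The C/EBP genes are short and differed at their starts. At Cebpb (chromosome 2, 167688915 to 167690432) a region over the start (167688728 to 167689316) had percentiles of 20.2 and 30.5 in monoculture hypoxia, 10.1 and 42.7 in co-culture normoxia and 37.9 and 63.6 in co-culture hypoxia, with 23 to 54 fragments. A region 8.71 kb upstream (167680048 to 167680928) was present in the same 6 libraries, at percentiles of 8.46 and 4.31 in monoculture hypoxia, 53.2 and 46.5 in co-culture normoxia and 38.1 and 5.48 in co-culture hypoxia. No normoxic monoculture library had either of them. One more Cebpb region, 9.14 kb past the start and 355 bp wide, stood at the 86.8 percentile with 61 fragments in co-culture hypoxia replicate 1 and was called in none of the other 7 libraries.

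At Cebpa (chromosome 7, 35119293 to 35121928) the window before the start was touched by a peak in 1 library only, monoculture normoxia replicate 1, at the 7.25 percentile with 7 fragments. A region 8.06 kb past the start (35127182 to 35127989) had percentiles of 39.8 and 41.4 in monoculture hypoxia, 10.6 in co-culture normoxia replicate 1 and 19.3 in co-culture hypoxia replicate 1. The relative Cebpd had 2 regions and peaks in 6 libraries, and Cebpg had 4 regions and peaks in 7.

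Mef2a and Mef2c differed in how constant their sites were. Mef2a (chromosome 7, 67231163 to 67376456) had a region over its listed start (67372810 to 67373698) in 6 libraries, with percentiles of 34.1 in monoculture normoxia replicate 1, 1.97 in monoculture hypoxia replicate 1, 20.2 and 32.8 in co-culture normoxia and 9.03 and 33.4 in co-culture hypoxia. Both second replicates of monoculture lacked it. Of the remaining 2 Mef2a regions, one lay over the neighbouring gene Lysmd4 and one was called in 1 library. The region over Lysmd4 had the highest median percentile of the Mef2a regions, 47.3, with a peak in 4 libraries. Percentiles there were 30.5 and 27.2 in replicate 1 of monoculture normoxia and hypoxia. In replicate 2 of co-culture normoxia and hypoxia they were 64.2 and 72.8.

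Mef2c (chromosome 13, 83504017 to 83667079) held the site of highest median percentile among all members (Mef2c region 5 in the plots). It lay from 83571916 to 83572743, ending 864 bp before the third listed start, and had percentiles of 93.4 and 94.8 in monoculture normoxia, 92.4 and 92.3 in monoculture hypoxia, 94.4 and 91.8 in co-culture normoxia and 86.7 and 65.1 in co-culture hypoxia. It was kept in all 8 lists when each was reduced to its 9910 strongest peaks. The other constant sites were kept in fewer such lists, Mef2c region 4 in 3, Mef2c region 10 in 7 and Maf region 1 in 5. The second constant site, 62.3 kb past the first start (region 4, 83565754 to 83566700), had percentiles of 65.0 and 61.1 in monoculture normoxia, 42.6 and 65.7 in monoculture hypoxia, 22.1 and 21.4 in co-culture normoxia and 40.1 and 29.7 in co-culture hypoxia. The third, at 105 kb (region 10, 83608986 to 83609781), had 79.5 and 57.8, 79.2 and 87.0, 86.1 and 77.0, and 64.2 and 56.3 in the same order of groups. No region lay over any of the 3 listed Mef2c starts, although one from 83523816 to 83525306 began 160 bp past the second and was called in 7 libraries. The relative Mef2d had 4 regions, 1 of them in all 8 libraries, and Mef2b had 2 regions with none in all 8.

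Maf (chromosome 8, 115703253 to 115706894) had 1 region, over its upper end (115706583 to 115708395, 1813 bp wide). Percentiles were 45.8 and 27.2 in monoculture normoxia, 55.8 and 56.4 in monoculture hypoxia, 66.8 and 34.1 in co-culture normoxia and 87.7 and 70.2 in co-culture hypoxia.

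Member regions with a peak numbered 12 and 5 in monoculture normoxia (mean 8.5 ± 4.95, SD, n = 2), 19 and 25 in monoculture hypoxia (22 ± 4.24, SD, n = 2), 20 and 20 in co-culture normoxia, and 26 and 17 in co-culture hypoxia (21.5 ± 6.36, SD, n = 2). Both normoxic monoculture libraries lay below all 6 others, which overlapped. Averaged over cultures the hypoxic libraries had 7.5 more member regions than the normoxic ones, and averaged over oxygen levels the co-culture libraries had 5.5 more than monoculture, both above the pooled SD of 4.56. The culture difference was 3.25 without co-culture hypoxia replicate 1. The oxygen difference was 13.5 in monoculture and 1.5 in co-culture. All regions moved likewise, by 8625 with hypoxia and 5286 with co-culture, and relative to all regions the member counts were 7.42 ± 3.00, 8.99 ± 1.21, 9.51 ± 0.0243 and 8.56 ± 0.648 per 10000 regions (SD, n = 2) in the order monoculture normoxia, monoculture hypoxia, co-culture normoxia and co-culture hypoxia. On that scale the oxygen difference was 0.308 and the culture difference 0.826, both under the pooled SD of 1.65. In lists of equal number, the 9910 peaks of highest −log10 p in each library, the counts were 10 and 5, 4 and 3, 5 and 5, and 3 and 8 in that order. The oxygen difference then turned to -1.75 and the culture difference to -0.25, both under the pooled SD of 2.52. The number of the 9 genes with a peak within 10 kb was 5 and 3 in monoculture normoxia, 8 and 7 in monoculture hypoxia, 8 and 7 in co-culture normoxia and 8 and 6 in co-culture hypoxia. Among all 21887 protein-coding genes, 9378 and 7827 had such a peak in the 2 normoxic monoculture libraries. The 6 others ranged from 12592 to 14126, so both numbers were lowest in the same 2 libraries.

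**Figure D3:**
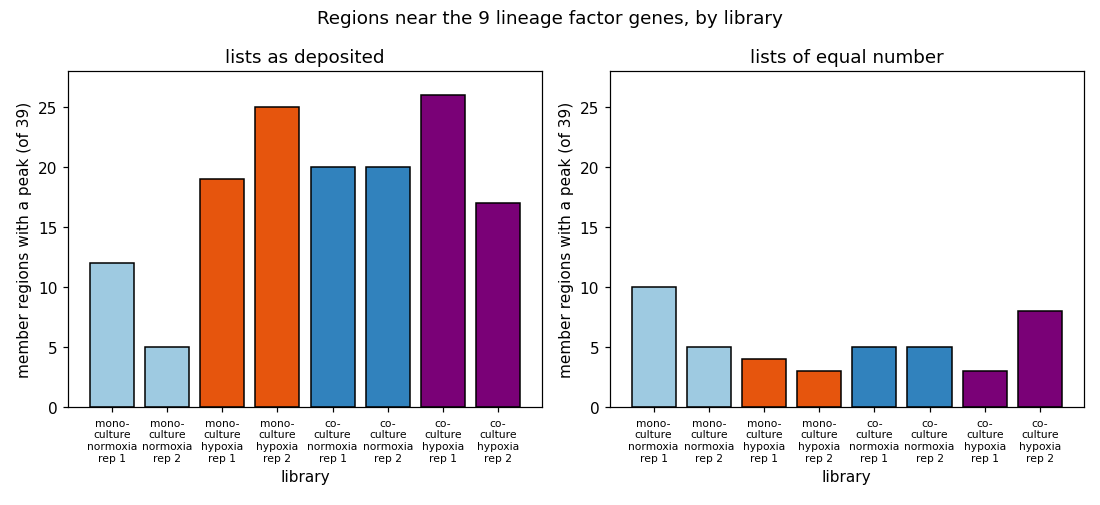
Number of the 39 member regions with a peak (vertical axis) in each of the 8 libraries (bars, coloured by group), in the lists as deposited (left) and in lists cut to the 9910 strongest peaks (right). The 2 normoxic monoculture bars, at 12 and 5, are the lowest on the left. On the right monoculture normoxia replicate 1 is the highest bar, at 10.

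By presence or absence of a peak, no member region separated the oxygen levels or the cultures across all 8 libraries. Of the 39, 0 were called in the 4 hypoxic libraries while missing from the 4 normoxic ones (background 2.08% of all regions), and 0 the other way round (0.0196%). Likewise 0 were called in the 4 co-culture libraries while missing from the 4 of monoculture (1.98%), and 0 the other way round (0.027%). With 39 regions these shares would amount to less than 1 region each, so a count of 0 is near the background. The nearest cases were the Irf8 promoter and the distal Runx1 promoter, each in 4 hypoxic libraries and 1 normoxic co-culture library, and a Mef2c region 100.5 kb past the first start (83603742 to 83605058), in 4 co-culture libraries and in monoculture hypoxia replicate 2. The family relatives, 26 genes, had 1 region of 78 gained in all hypoxic libraries, near Sall3. Runx2, Cebpz and Mafk each had 1 region gained in all co-culture libraries. Among the 123 regions of 28 other myeloid factors, 2 were gained with hypoxia, near Klf4 and Tfec, and 1 with co-culture, near Nr4a1. All 28 of those factors had at least 1 region, as did 23 of the 26 relatives, 8 of the 9 members and 69.5% of all protein-coding genes.

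Within single contrasts, a region counted as gained when a peak was called in both libraries of one group and in none of the reference group, and as lost when the reverse held. With hypoxia in monoculture, 8 of 39 member regions were gained (20.5%), against 17.7% of all regions, and 0 were lost (0.179%). The 8 were the Spi1 gene body region, the Irf8 promoter, 3 Runx1 regions with both of its starts among them, the Cebpa region 8.06 kb past the start, and the Cebpb promoter and upstream regions. With co-culture in normoxia, 6 were gained (15.4%), against 12.5%, and 0 lost (0.181%): the Spi1 region, the proximal Runx1 promoter, the Runx1 region at 150.2 kb, the same 2 Cebpb regions and the Mef2c region at 100.5 kb. Both contrasts share the normoxic monoculture libraries. A peak in every library except those was found at 3 member regions (7.69%), 1 in Runx1 and 2 at Cebpb, against 4.97% of all regions. With hypoxia in co-culture 1 region was gained (2.56%, background 6.09%) and 0 lost (2.05%), and with co-culture in hypoxia 1 was gained (2.56%, background 5.83%) and 0 lost (3.76%). Both times it was a Mef2c region 84.4 kb past the first start, called only in the 2 hypoxic co-culture libraries at percentiles of 13.7 and 17.6. All these shares were near the background or rested on 1 region.

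In lists of equal number the gains with hypoxia in monoculture fell to 0 of 39 (background 3.59%), and 1 region, at Maf, was lost (2.49%). Gains with co-culture in normoxia fell to 1, the proximal Runx1 promoter (2.37%), and 1 was lost, the Mef2c region at 62.3 kb (1.43%). With hypoxia in co-culture 2 Runx1 regions were lost, the proximal promoter and the region at 205 kb (2.78%). With co-culture in hypoxia the Maf region was gained (3.58%). The gains at Spi1, Irf8, Cebpa and Cebpb in the deposited lists were thus absent at equal list length. In the groups with the gain these regions stood at a percentile of 54.3 or lower, below the cut. Their absence therefore follows from those percentiles and is no separate check.

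To set libraries side by side on the same regions, the 6375 regions with a peak in all 8 were ranked in each library by −log10 p. This common rank, as a percentile from 0 to 100, compares the same set in every list. It was compared between oxygen levels with a two-sided exact permutation test within culture, and between cultures within oxygen level. The 36 relabellings allow no p below 0.0556, so no region could reach 0.05, and p-values were adjusted by Benjamini-Hochberg over all 6375 regions. Of the 4 member regions in the set, 0 had both hypoxic libraries above both normoxic libraries in each culture (background 11.5%) and 1 had them below (12.4%). Likewise 0 had both co-culture libraries above both monoculture libraries at each oxygen level (11.2%) and 2 had them below (12.2%). These 3 cases were Mef2c region 5 in both comparisons and Mef2c region 4 for culture, while Mef2c region 10 was in none of them.

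The strongest Mef2c site, 864 bp before the third start, stood lower in hypoxia and in co-culture. Its common rank was 87.1 and 92.0 in monoculture normoxia, 76.1 and 74.6 in monoculture hypoxia, 82.3 and 74.4 in co-culture normoxia and 60.3 and 36.4 in co-culture hypoxia. Both hypoxic libraries lay below both normoxic ones in each culture, and both co-culture libraries below both monoculture ones at each oxygen level. The oxygen difference was -22.1 points (two-sided exact permutation p = 0.0556, the smallest possible; adjusted p = 0.233), lower than that of all but 7.04% of the common regions. The culture difference was -19.1 points (exact permutation p = 0.0556, adjusted p = 0.237), lower than all but 11.2%. Both exceeded the pooled SD between replicates of 9.08 points. Co-culture hypoxia replicate 2 was the lowest, and without it the differences were -15.6 and -12.5 points.

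The Mef2c site 62.3 kb past the first start stood lower in co-culture. Its common rank was 44.5 and 44.8 in monoculture normoxia, 10.5 and 27.8 in monoculture hypoxia, 1.55 and 1.28 in co-culture normoxia and 7.96 and 7.58 in co-culture hypoxia. All 4 co-culture libraries lay below all 4 monoculture libraries. The culture difference was -27.3 points (two-sided exact permutation p = 0.0556, adjusted p = 0.237), lower than all but 4.35% of the common regions and above the pooled SD of 6.12 points. The oxygen difference was -9.57 points (exact permutation p = 0.333, adjusted p = 0.552), and it was -5.09 without monoculture hypoxia replicate 1. The remaining constant Mef2c site, at 105 kb, had common ranks of 64.2 and 40.8 in monoculture normoxia, 48.0 and 61.4 in monoculture hypoxia, 60.1 and 40.9 in co-culture normoxia and 25.4 and 26.8 in co-culture hypoxia. The hypoxic co-culture libraries were the lowest, and the other 3 groups overlapped. Its oxygen difference was -11.1 points (exact permutation p = 0.333, adjusted p = 0.552), within the pooled SD of 11.7 points, and turned to 0.41 when regions were ranked by fold enrichment. It was -6.38 without co-culture normoxia replicate 1, -6.86 without monoculture normoxia replicate 1 and -19.4 without monoculture normoxia replicate 2. Its culture difference was -15.3 points (exact permutation p = 0.167, adjusted p = 0.368).

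The Maf region stood highest in hypoxic co-culture. Its common rank was 24.4 and 11.0 in monoculture normoxia, 19.8 and 19.0 in monoculture hypoxia, 26.4 and 4.48 in co-culture normoxia and 62.4 and 43.1 in co-culture hypoxia. The hypoxic co-culture libraries lay above the other 6, whose groups overlapped. The oxygen difference was 19.5 points (exact permutation p = 0.167, adjusted p = 0.381) and the culture difference 15.5 points (exact permutation p = 0.222, adjusted p = 0.426), against a pooled SD of 11.4 points. The culture difference was 10.1 points without monoculture normoxia replicate 2 and also 10.1 without co-culture normoxia replicate 1. The differences between hypoxic co-culture and each other group were not tested singly.

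**Figure D4:**
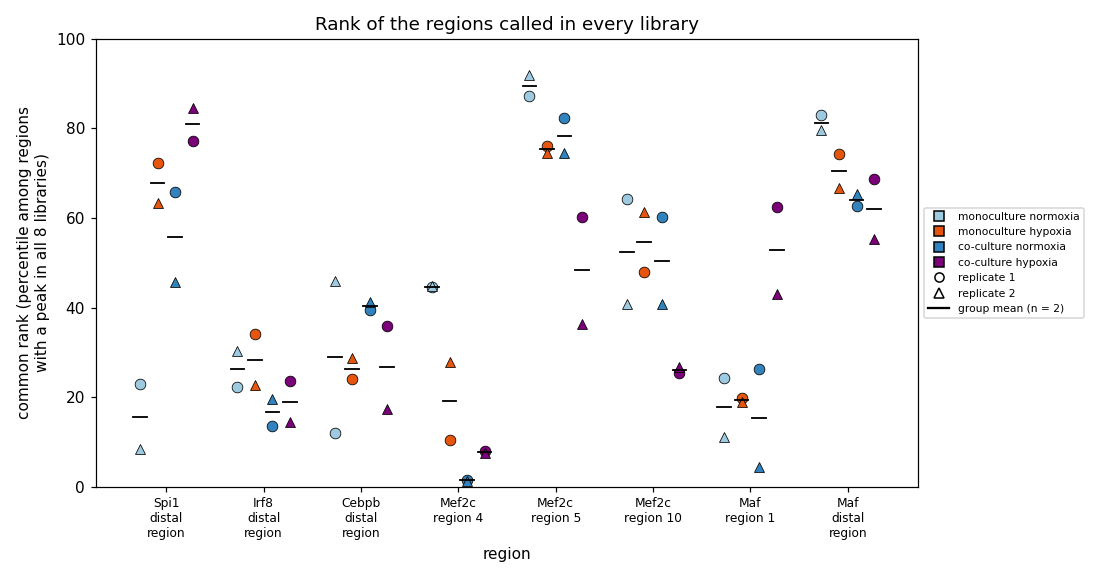
Common rank (percentile by −log10 p among the 6375 regions with a peak in all 8 libraries, vertical axis) for 8 regions (horizontal axis), the 4 within 10 kb of Mef2c or Maf and the 4 farther out, labelled distal. Colours are groups, circles replicate 1, triangles replicate 2 and bars the group means. Mef2c region 5, before the third start, stands at 60.3 and 36.4 in hypoxic co-culture, while Maf region 1 stands at 62.4 and 43.1.

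Beyond 10 kb and out to 50 kb, 4 regions with a peak in all 8 libraries lay near members. They do not count among the 39. The strongest difference was at the one 11471 bp below Spi1 (chromosome 2, 91069849 to 91070903), which lies over the neighbouring genes Slc39a13 and Gm39874, so it cannot be assigned to Spi1 from these lists. Its common rank was 22.9 and 8.39 in monoculture normoxia, 72.2 and 63.3 in monoculture hypoxia, 65.8 and 45.7 in co-culture normoxia and 77.2 and 84.6 in co-culture hypoxia. The hypoxic libraries lay above the normoxic ones in each culture, and the co-culture libraries above the monoculture ones at each oxygen level. The oxygen difference was 38.6 points (two-sided exact permutation p = 0.0556, adjusted p = 0.233), above that of 99.1% of the common regions, and the culture difference 26.6 points (exact permutation p = 0.0556, adjusted p = 0.237), above that of 95.3%. Ranked by fold enrichment, the culture difference was 16.7 points.

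The other 3 were flatter. A region 35435 bp above Maf (115742329 to 115744017) had common ranks from 55.3 to 83.0, with an oxygen difference of -6.43 points (exact permutation p = 0.222, adjusted p = 0.445) and a culture difference of -12.8 points (exact permutation p = 0.111, adjusted p = 0.305). The oxygen difference was -2.96 points without co-culture hypoxia replicate 2, -9.76 without replicate 1 of that group and -11.4 when ranked by fold enrichment. Near Irf8, 49673 bp below the gene (120685066 to 120686685), the differences were 2.27 and -9.51 points (exact permutation p = 0.556 and 0.111). Near Cebpb, 31732 bp below the gene and over Tmem189 (167656582 to 167657183), they were -8.10 and 5.81 points (exact permutation p = 0.389 and 0.611).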

How the data were processed

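ATAC-seq libraries of BV2 cells were described through 1 peak list per library. Per the submitters' processing notes, which give no roles or order, Trimmomatic 0.36, HISAT2 2.1.0, Picard, SAMtools, deepTools and MACS2 2.1.1.2 were used with mm10. Whether reads were shifted for Tn5 is not given in the sources used here. The authors deposited, per peak, a score, a fold enrichment (a linear ratio over background), −log10 p, −log10 q and a summit offset in bp. The lists end near a −log10 q of 2.00, so weaker sites are missing.

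Overlapping peaks (1 bp) of the 8 lists were merged. Genes and starts came from RefSeq tables of GRCm38.p6, with starts for 7 of the 9 members. Computation was in Python 3.11.15 with pandas 2.3.3, numpy 2.4.6, matplotlib 3.10.9 and scipy 1.17.1. The merging of peaks, the assignment to genes, the common rank and the permutation test were tested on made-up data, the other steps were not. Summit fragments were solved assuming a fold of (n + 1)/(b + 1) and a Poisson p. Groups came from the sample labels. Counts over members have no test. Common ranks were tested with exact permutations. Alternatives were equal-number lists, a stricter q, summit windows, other distances, no peaks over 10 kb, ranking by fold, a replicate block and leaving out each library.

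The members and lists were chosen with earlier results of these data known. Regions named singly were those at a gene start, those of highest median percentile, those gained or lost, and, out to 50 kb, those in all 8 libraries. Others named, such as the Cebpb region in 1 library, were chosen after their values were seen. Some results for relatives of the members are not reported here.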

Additional observations from a re-analysis of the deposited data

Results flagged for a closer look

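The Mef2c region 62.3 kb past the first start moved in opposite directions with hypoxia in the 2 cultures. Its common rank was lower in both hypoxic libraries than in both normoxic ones in monoculture, by a mean of -25.5 points, and higher in both in co-culture, by 6.36 points. The difference between the cultures was not tested.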

How the results depend on the processing

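The number of member regions with a peak differed by 7.5 between oxygen levels and by 5.5 between cultures. In equal-number lists these turned to -1.75 and -0.25, and within 50 kb the oxygen difference grew to 13.5. Leaving out each library in turn gave 5.25 to 9.75 for oxygen and 3.25 to 7.75 for culture, lowest without co-culture hypoxia replicate 1 and highest without replicate 2 of that group. Regions gained in all hypoxic libraries numbered 0 to 1: 1 without co-culture normoxia replicate 1 (the distal Runx1 promoter) and 1 without co-culture normoxia replicate 2 (the Irf8 promoter). Regions gained in all co-culture libraries likewise numbered 0 to 1, with 1 without monoculture hypoxia replicate 2 (in Mef2c). Regions lost were 0 under every alternative run. Ranked by fold, the oxygen difference of the Mef2c region at 105 kb was 0.41 instead of -11.1; the cause was not tested. Every other common-rank difference of the Mef2c regions, of Maf and of the outer Spi1 and Maf regions kept its direction, over 11 or 12 alternatives each. The Maf region had no value with summit windows.

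With the replicate block, in which libraries of the same number are paired, the differences in region number stayed 7.5 and 5.5. The smallest exact p was then 0.125, reached for the Mef2c region before the third start and the outer Spi1 region in both comparisons, and for culture alone by the Mef2c region at 62.3 kb and the outer Irf8 and Maf regions. Same-numbered libraries did not deviate together throughout (correlations across regions from -0.0299 to 0.196 between pairs of groups), so the numbers are not shown to pair them. The lists of 9910 and 13333 peaks had 1.03 and 0.758 background fragments, and those of 21633 to 29658 peaks had 1.07 to 1.45. The part of depth in the counts of peaks was not tested.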
